A study of Mus musculus with 6 samples.

Results

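The genes examined here are 8 SR proteins (SRSF1, SRSF2, SRSF3, SRSF4, SRSF5, SRSF6, SRSF7 and SRSF9) and their relatives TRA2A and TRA2B. They were taken by gene symbol from RSEM isoform tables, which hold 103 isoforms of these 10 genes among 208621 isoforms of 58870 genes. The RNA came from 77-5 cells, a single clone of T-REx-293 (human embryonic kidney cells of the HEK293 line with a tetracycline repressor) that carries Rbfox1 behind a doxycycline-controlled promoter and a mouse Ntrk2 BAC minigene, RP23-424E11. The No Dox group (n = 3) received no treatment, and the Dox group (n = 3) received doxycycline for 48 h to switch on Rbfox1, an RNA-binding regulator of alternative splicing. Every sample carries the minigene and the inducible construct, so doxycycline itself and Rbfox1 cannot be told apart. The labels state the dose as 0.5 mg/ml, while legends in the study use micrograms per ml. The labels list mouse as the organism, but the transcripts quantified are human. Nothing in the labels says whether samples of a group were separate cultures, so p-values measure the spread between these samples only.

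SR proteins bind exonic enhancers through RNA recognition motifs and recruit the spliceosome through a domain rich in arginine and serine. TRA2 proteins do the same with a recognition motif flanked by such domains on both sides. Most of these genes limit their own level: when the protein is abundant, their transcripts include a poison exon or splice the 3' end differently, which brings in a premature stop codon and sends the RNA to nonsense-mediated decay. The balance between productive and unproductive isoforms is therefore a usual readout for this family. The deposited tables identify isoforms by name and length and do not mark which of them carry a poison exon. Isoforms are therefore described below by name, length and abundance, and none is called a poison exon isoform. Human sequences and coordinates were not used here.

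The induction was checked first. RBFOX1 went from 7.53 to 188 TPM (an abundance scaled for transcript length and sequencing depth) and RBFOX2, its paralog, from 48.3 to 17.0 TPM (edgeR adjusted p = 7.6e-18 and 1.4e-16). Total expected counts, RSEM's estimate of fragments, were 59822964 to 65774104 per sample. Of 4 markers listed for HEK293, VIM was at 654 to 698 TPM and NEFL at 51.8 to 66.6 TPM, while PAX2 and NEFM were low at 2.03 to 2.77 and 0.45 to 1.21 TPM. All 8 markers of leukocytes, liver, endothelium and muscle were at or under 0.50 TPM. Mitochondrial genes took 3.61 to 3.71% of the counts in Dox against 3.25 to 3.34% without it, and the part of this in the results was not tested.

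All 10 genes were abundant, and the changes between groups were small. Of the 10, 8 were lower in Dox by edgeR's quasi-likelihood test and none passed as higher, although 1 (SRSF5) was higher at an unadjusted p under 0.05. DESeq2 also called 8. Among all 18264 genes tested, 26.5% were lower and 24.9% were higher (51.4% in either direction). Among the 2980 genes with at least as many counts as the least counted of the 10, 47.2% were lower and 21.8% higher, so at this depth lower calls were more frequent than higher calls in the background too. The median log2 fold change of the 10 genes was -0.12, against 0.00 for all genes and -0.06 for those 2980. Added together, the 10 genes came to 2945, 2981 and 2990 TPM in the No Dox samples and 2784, 2777 and 2850 TPM in the Dox samples, a change of -5.67% with no overlap between the groups. With library size alone in place of TMM normalization, 20.5% of all genes were lower and 31.1% higher, and 5 of the 10 genes were lower and 2 higher.

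**Figure D1:**
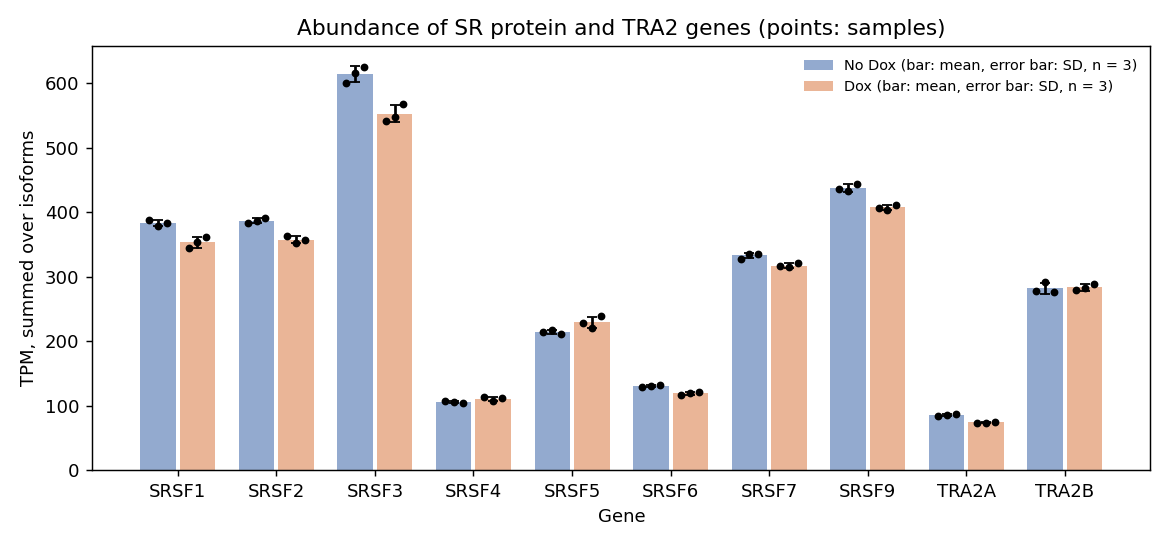
TPM summed over isoforms for each of the 10 genes (y axis from 0), with bars for the group mean, error bars for SD (n = 3) and points for samples. SRSF3 was the most abundant at 614 and 552 TPM, TRA2A the least at 85.4 and 74.0 TPM, and the Dox bars sit slightly below the No Dox bars except in SRSF4, SRSF5 and TRA2B.

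SRSF1 (ENSG00000136450.13) is the founding SR protein, an activator of 5' splice site choice that shuttles between nucleus and cytoplasm. It was at 388, 379 and 383 TPM in No Dox and 344, 354 and 361 TPM in Dox. The groups did not overlap, and SRSF1 fell with a log2 fold change of -0.10 ± 0.02 (SE; 95% interval -0.15 to -0.05, edgeR adjusted p = 0.0013). SRSF9 (ENSG00000111786.9), its closest paralog by domain layout, was at 436, 432 and 444 TPM in No Dox and 407, 404 and 411 TPM in Dox. It fell by 0.16 on the log2 scale (edgeR adjusted p = 3.3e-05), again with no overlap. Without TMM, SRSF1 kept its sign and did not pass (edgeR adjusted p = 0.056).

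SRSF2 (ENSG00000161547.16) stays mainly in nuclear speckles, the stores of splicing factors. Its level was 382, 387 and 391 TPM in No Dox and 363, 353 and 356 TPM in Dox. All Dox samples were below all No Dox samples, a change of -7.55% in mean TPM, while the test on counts gave a log2 fold change of -0.18 ± 0.02 (SE, edgeR adjusted p = 2.6e-06). With TMM the counts fell further than the TPM, for which limma on log2(TPM + 1) gave a log2 fold change of -0.11. The counts of SRSF2 gave -0.14 without TMM, between those values. The mean isoform length weighted by abundance went from 1858 ± 6.0 to 1818 ± 12 nt (SD, n = 3) with no overlap. How much of the SRSF2 gap goes with scaling and how much with isoform length was not tested. SRSF2 shares its locus with MFSD11 on the opposite strand. The libraries were stranded, but the strand setting of RSEM was not known here, so reads of the pair may not be fully separated.

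SRSF3 (ENSG00000112081.17) and SRSF7 (ENSG00000115875.19) are related adaptors that hand spliced mRNA to the export receptor. SRSF3 was at 600, 615 and 625 TPM in No Dox and 542, 548 and 567 TPM in Dox. SRSF7 was at 328, 335 and 336 TPM in No Dox and 316, 314 and 321 TPM in Dox. Neither gene had overlapping groups. Their log2 fold changes were -0.13 (95% interval -0.19 to -0.08) and -0.09 (-0.14 to -0.04), with edgeR adjusted p of 0.00018 and 0.0046. SRSF7 did not pass without TMM (edgeR adjusted p = 0.14).

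SRSF4, SRSF5 and SRSF6 form a subgroup with a pair of recognition motifs each, and here they did not move alike. SRSF6 (ENSG00000124193.15), which has 2 isoforms in the tables, was at 129, 131 and 132 TPM in No Dox and 117, 120 and 121 TPM in Dox. It fell by 0.20 on the log2 scale (95% interval -0.26 to -0.14, edgeR adjusted p = 8.2e-06). SRSF4 (ENSG00000116350.17) was at 108, 105 and 104 TPM in No Dox and 114, 107 and 112 TPM in Dox, and the groups overlapped. Its log2 fold change was 0.02 with a 95% interval of -0.03 to 0.08 (edgeR adjusted p = 0.49), so a change beyond that interval was not seen. SRSF5 (ENSG00000100650.15), first described in rat liver cells as a gene induced by insulin, was at 214, 218 and 211 TPM in No Dox and 229, 220 and 238 TPM in Dox. All Dox samples of SRSF5 were higher, by 6.97% in the mean, but the edgeR test did not pass (log2 fold change 0.05, 95% interval 0.00 to 0.11, adjusted p = 0.086). Without TMM, SRSF4 and SRSF5 passed as higher (edgeR adjusted p = 0.039 and 0.0033), and on log2(TPM + 1) SRSF5 did (limma adjusted p = 0.041).

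The TRA2 paralogs, which activate exons through repeats rich in GAA, differed in how firmly they changed. TRA2A (ENSG00000164548.11) was at 83.5, 86.2 and 86.5 TPM in No Dox and 73.8, 73.9 and 74.3 TPM in Dox. It had the lowest log2 fold change of the 10 genes, -0.21 ± 0.03 (SE, edgeR adjusted p = 9.9e-06), a mean change of -13.3% in TPM. TRA2B (ENSG00000136527.18), the better studied activator, was at 277, 292 and 277 TPM in No Dox and 279, 283 and 289 TPM in Dox. The TPM groups overlapped, with means of 282 ± 8.8 and 283 ± 5.3 (SD, n = 3), while the test on counts called it lower (log2 fold change -0.07, edgeR adjusted p = 0.029). That call was absent on log2(TPM + 1), where the sign turned (log2 fold change 0.01, limma adjusted p = 0.86), absent without TMM (edgeR adjusted p = 0.45), and absent with any of 4 samples left out, namely replicates 1 and 2 of No Dox (edgeR adjusted p = 0.067 and 0.10) and the same numbers of Dox (0.16 and 0.052). Without TMM the log2 fold change of TRA2B was -0.02, between the values with TMM and on TPM. The 4178-nt isoform TRA2B-205, described below, holds 30.1% of the TRA2B counts in No Dox and 25.6% in Dox. The parts of scaling and isoform length in the gap between counts and TPM were not tested. The other 7 genes called lower kept their call in every set with 1 sample left out.

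**Figure D2:**
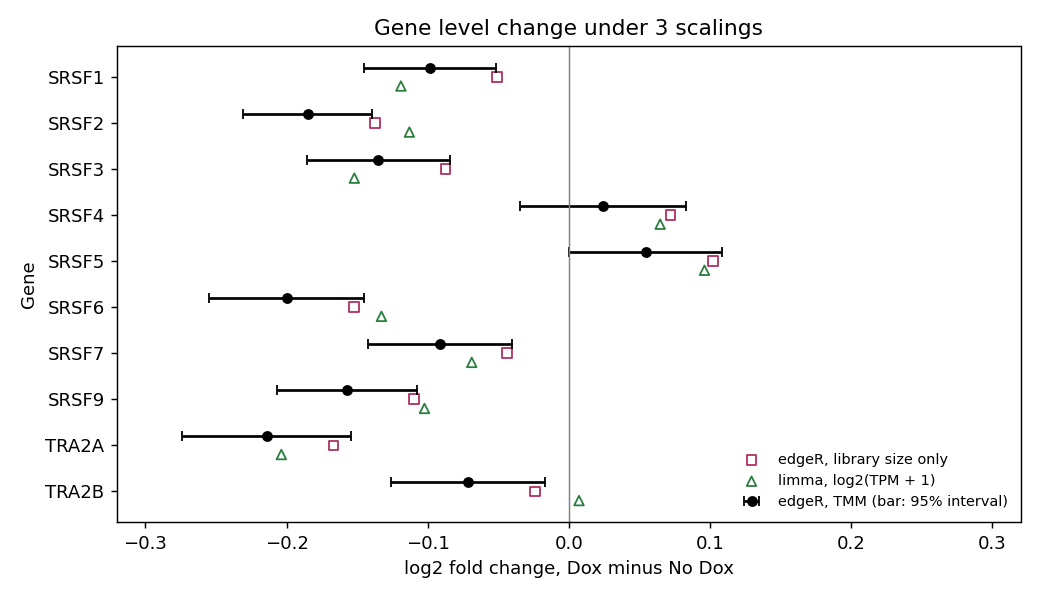
log2 fold change (Dox minus No Dox, x axis) of each gene by edgeR with TMM (filled points, bars are 95% intervals), by edgeR with library size only (squares) and by limma on log2(TPM + 1) (triangles). With TMM the values run from -0.21 for TRA2A to 0.05 for SRSF5, and TRA2B lies on either side of 0 depending on the scaling.

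None of the 10 genes exceeded a 1.2-fold change in a test against that minimum (edgeR glmTreat), and none did at an unadjusted p under 0.05. Of all 18264 genes, 2430 passed this test at an adjusted p under 0.05. Whether the 10 genes differ from that share, which is not matched for counts, was not tested. In percent of TPM, TRA2A had the largest change of the 10.

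The isoforms were compared next. Of the 103 isoforms, 83 passed the filter on low counts. The 20 others held at most 24.0 counts in any sample, and 7 isoforms had no counts in any sample. By limma-voom, 11 of the 83 were lower in Dox and 5 higher (19.3% in all), against 6.44% lower and 6.19% higher among all 72438 isoforms tested (12.6% in either direction). Isoforms of these genes carry many counts. Of isoforms with a mean of at least 1000 counts, 13 of 30 from the 10 genes (43.3%) and 38.7% of all 10927 were called, with median absolute log2 fold changes of 0.14 and 0.16. Each of the 10 genes had at least 1 called isoform, out of 2 (SRSF6) to 16 (SRSF5) tested. The share of all genes with a called isoform was not counted, so this is a description only.

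Among the isoforms called lower were major isoforms of the genes that fell. SRSF9-201 (1152 nt), which makes up 91.2% of SRSF9 in No Dox, went from 399 ± 7.7 to 364 ± 2.7 TPM (SD, n = 3; log2 fold change -0.15, limma adjusted p = 0.0028). TRA2A-201 (1785 nt) went from 64.6 ± 0.41 to 55.0 ± 1.1 TPM (log2 fold change -0.25, limma adjusted p = 0.0036). SRSF1-205 (3117 nt), SRSF2-202 (1927 nt), SRSF3-208 (869 nt) and SRSF7-202 (1050 nt), each the leading isoform of its gene by TPM, fell by 0.15, 0.17, 0.24 and 0.13 on the log2 scale. SRSF6-201 (4353 nt) fell by 0.21, from 72.7 ± 1.4 to 63.5 ± 2.5 TPM. The second isoforms SRSF2-203 and SRSF3-206 fell by 0.24 and 0.21. The leading isoform of SRSF4, SRSF4-201 (2300 nt, 88.6% of the gene in No Dox), had a log2 fold change of 0.02 with an interval of -0.04 to 0.09.

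TPM shares weigh short isoforms heavily, and SRSF3 shows this. SRSF3-202 (4228 nt) held 55.0% of the SRSF3 counts in No Dox but 16.0% of its abundance, while SRSF3-206 (544 nt) held 10.8% of the counts and 35.0% of the abundance. SRSF3-202 had a log2 fold change of -0.10 and did not pass (limma adjusted p = 0.070), though it did with DESeq2 (0.014) and without Dox replicate 3 (limma, 0.038).

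Against these, 5 isoforms were higher, and 3 of them belong to SRSF5. SRSF5-201 (1638 nt) rose from 4.12 ± 0.42 to 7.09 ± 0.62 TPM (log2 fold change 0.77, 95% interval 0.49 to 1.06, limma adjusted p = 0.0088). SRSF5-215 (1863 nt) rose from 3.15 ± 0.14 to 4.65 ± 0.32 TPM, and SRSF5-217 (1500 nt), the leading isoform of SRSF5, from 70.7 ± 1.8 to 78.4 ± 1.7 TPM. SRSF4-208, the longest isoform of any of these genes at 8128 nt, rose from 1.75 ± 0.06 to 2.30 ± 0.15 TPM (log2 fold change 0.38, limma adjusted p = 0.021). SRSF1-201 (5343 nt) rose from 56.4 ± 0.94 to 60.6 ± 0.88 TPM while SRSF1 as a whole fell (log2 fold change 0.09, limma adjusted p = 0.022). Calls at this level were fewer when a sample was left out, above all among the isoforms that were higher. Of the 5 higher isoforms, 1 (SRSF5-201) passed in all 6 sets with a sample left out. SRSF5-217 passed in none (limma adjusted p of 0.072 to 0.13). SRSF5-215 and SRSF4-208 passed only without Dox replicate 2 (0.056 to 0.079 and 0.061 to 0.082 in the others), and SRSF1-201 only without Dox replicate 1 or 3 (0.058 to 0.083). Of the 11 lower isoforms, 9 passed in all 6 sets. SRSF3-206 passed only without No Dox replicate 1 (0.057 to 0.11), and SRSF2-203 missed without Dox replicate 1 or 2 (0.053 and 0.054).

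The next question was whether the isoform makeup of each gene changed. Which isoforms are productive is not marked in the tables, so a shift between productive and unproductive isoforms could not be measured as such. No isoform of the 10 genes moved by 3 percentage points or more between group means, and the largest move was 2.98 points, of SRSF5-204 (526 nt), from 10.5 ± 1.2% to 13.5 ± 3.5% of SRSF5. In the Dox samples SRSF5-204 was at 10.1, 17.2 and 13.2%, a spread that overlaps the No Dox samples. A test of each isoform against the rest of its gene (limma on log2 ratios of counts) called 3 of the 83 isoforms (3.61%). Among all 66898 isoforms tested that way, 5.70% were called, 2.62% as lower and 3.08% as higher shares. With at least 1000 counts, 2 of 30 isoforms of the 10 genes (6.67%) and 13.3% of all isoforms were called. None of the 83 was called by this test when any 1 sample was left out, with 11 to 16 at an unadjusted p under 0.05, and none by diffSpliceDGE, with 5 unadjusted. By diffSplice 14 were called.

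**Figure D3:**
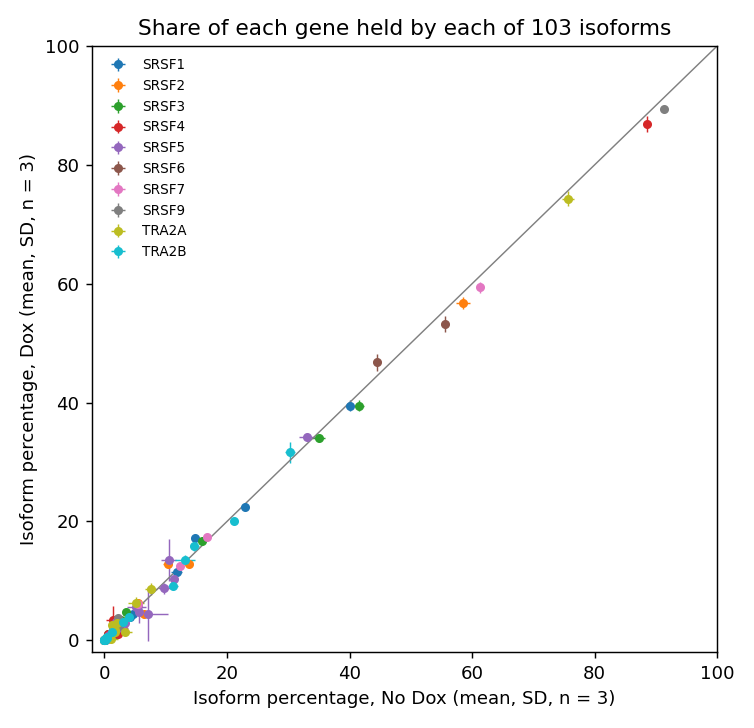
Isoform percentage (share of the abundance of its gene) in No Dox (x axis) and Dox (y axis) for all 103 isoforms, as means with SD bars (n = 3) and colors for genes. The points lie along the line of equal shares, and the farthest, SRSF5-204, is 2.98 points from it with a wide SD.

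SRSF2-206 (ENST00000582449.5, 1518 nt) was the clearest of the 3. SRSF2-206, SRSF5-201, SRSF5-202, SRSF5-215 and SRSF4-208 each held under 10% of their gene in both group means and moved by less than 3 points. These isoforms fall outside the rule for isoforms to name and were singled out after their values were seen. SRSF2-206 held 6.46, 6.30 and 6.40% of SRSF2 in No Dox and 4.33, 4.25 and 4.63% in Dox. The groups were far apart for their spread. Its counts were 1504, 1400 and 1463 in No Dox and 948, 834 and 1008 in Dox. That is a log2 fold change of -0.66 ± 0.06 (SE, limma adjusted p = 0.00088). Against the rest of SRSF2 the change was -0.53 (95% interval -0.73 to -0.32, limma adjusted p = 0.022), and over the alternatives of the usage test this adjusted p ranged from 0.0036 to 0.11. SRSF2-208 (1359 nt) stood on the other side, with 10.6, 9.42 and 10.9% in No Dox and 12.2, 13.2 and 12.9% in Dox. Its groups did not overlap either, but neither its level (log2 fold change 0.19, limma adjusted p = 0.12) nor its usage (0.38, adjusted p = 0.069) passed. Its level passed with DESeq2 (adjusted p = 0.025) and its usage with diffSplice (0.0054).

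SRSF1-201 (ENST00000258962.5), the longest SRSF1 isoform, held 14.3, 14.9 and 14.9% of SRSF1 in No Dox and 17.4, 17.0 and 17.1% in Dox. All Dox samples were higher, and its change against the rest of the gene was 0.25 (95% interval 0.13 to 0.37, limma adjusted p = 0.043, range 2.7e-08 to 0.65 over the alternatives). The mean SRSF1 isoform length weighted by abundance went from 2554 ± 14 to 2649 ± 27 nt (SD, n = 3). SRSF5-201 (ENST00000394366.6) held 2.08, 1.96 and 1.73% of SRSF5 in No Dox and 3.40, 2.98 and 2.92% in Dox, from counts of 233 to 295 and 398 to 509. Its usage change was 0.71 (95% interval 0.38 to 1.05, limma adjusted p = 0.039, range 0.038 to 0.77 over the alternatives).

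In TRA2B, 5 isoforms held 10% or more of the gene, led by TRA2B-206 (1697 nt) at 30.3 ± 0.89% in No Dox and 31.6 ± 1.8% in Dox. TRA2B-205 (4178 nt) held 12.0, 10.4 and 11.2% in No Dox and 9.44, 9.52 and 8.67% in Dox. Its groups did not overlap, and its level fell by 0.29 on the log2 scale (limma adjusted p = 0.012), while its usage change of -0.33 did not pass (95% interval -0.55 to -0.11, limma adjusted p = 0.11). Over the alternatives this adjusted p ranged from 8.79e-07, by diffSplice, to 0.38. TRA2B-201, TRA2B-203, TRA2B-206 and TRA2B-213 had log2 fold changes from -0.08 to 0.11, none of which passed. TRA2A-201 held 75.7 ± 1.0% of TRA2A in No Dox and 74.3 ± 1.2% in Dox, with overlapping samples (usage change -0.30, limma adjusted p = 0.055).

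**Figure D4:**
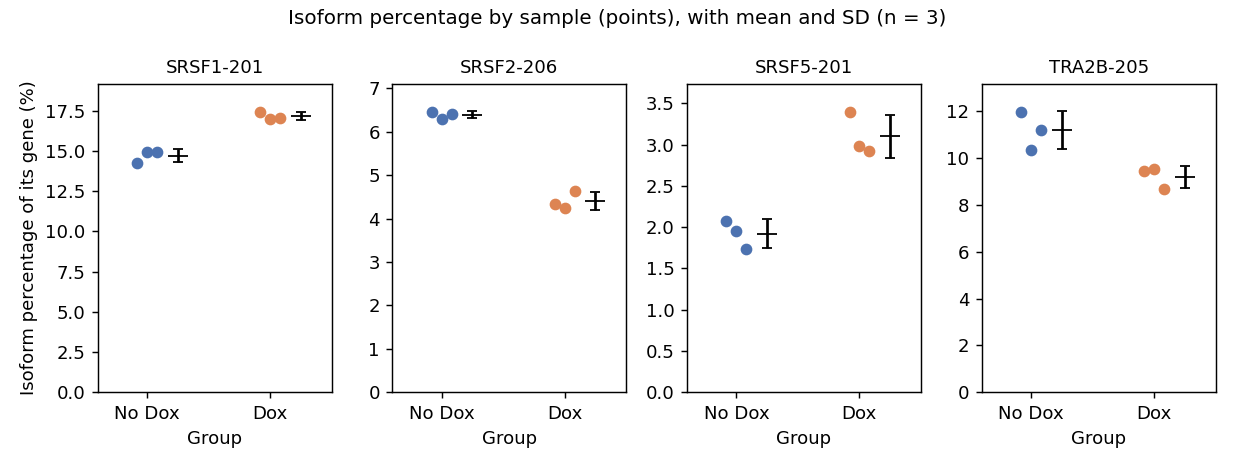
Isoform percentage of its gene (y axes from 0) in each sample (points) with the mean and SD (n = 3) for SRSF1-201, SRSF2-206, SRSF5-201 and TRA2B-205. SRSF2-206 lies at 6.30 to 6.46% in the No Dox samples and at 4.25 to 4.63% in the Dox samples, and in no panel do the groups overlap.

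The other isoforms of at least 10% of their gene also moved by less than 3 points in share of abundance. Several had groups that did not overlap, but their usage change did not pass. How many of all isoforms separate in this way was not counted, so no background stands beside the gaps given here or above. Some gaps were very small. The lowest No Dox and highest Dox samples were at 54.89 and 54.85% for SRSF6-201, and at 88.06 and 88.00% for SRSF4-201. SRSF9-201 held 91.2 ± 0.46% in No Dox and 89.4 ± 0.15% in Dox, SRSF4-201 88.6 ± 0.53% and 86.8 ± 1.4%, and SRSF3-208 41.5 ± 0.80% and 39.5 ± 0.91% (SD, n = 3), all without overlap. Their usage changes were -0.15, -0.24 and -0.17 (limma adjusted p = 0.19, 0.14 and 0.19). By diffSplice, SRSF9-201 and SRSF4-201 passed (adjusted p = 0.028 and 0.033). SRSF7-202 held 61.3 ± 0.41% and 59.4 ± 0.99%, SRSF7-201 16.7 and 17.4%, SRSF6-201 55.6 ± 0.63% and 53.2 ± 1.4%, with SRSF6-202 (1680 nt) holding the rest, and SRSF5-212 11.4 and 10.4%, again without overlap. SRSF7-208 (12.4 and 12.5%), SRSF1-206 (22.9 and 22.4%) and SRSF1-207 (11.8 and 11.5%) had overlapping groups. The usage changes of these 8 isoforms of SRSF7, SRSF6, SRSF5 and SRSF1 lay between -0.16 and 0.13, and none passed.

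Isoform makeup was also compared between pairs of samples, as the percentage points of a gene that are held by other isoforms in the other sample. Between group means this was 1.84 points in SRSF9, 2.11 in SRSF7 and 2.32 in SRSF6, and at most 7.14, in SRSF5. The median over the 10 genes was 3.15 points. Over 1362 genes with several isoforms and a level of 100 TPM or more in each group it was 2.63 points. TRA2A is among the 10 although it lies under 100 TPM. Of the 1362 genes, 103 exceeded 10 points and none of the 10 did, a difference that was not tested. In SRSF2 and SRSF9 every pair of a No Dox and a Dox sample differed more (at least 4.45 and 1.41 points) than any pair within a group (at most 3.09 and 1.15 points). In the other 8 genes these ranges overlapped. How many of all genes separate in this way was not counted, so no background stands beside SRSF2 and SRSF9. SRSF5, with 19 isoforms, had up to 10.8 points between samples of the same group. Its short isoform SRSF5-202 (613 nt), for example, was at 9.05, 0.00 and 4.17% in the Dox samples.

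**Figure D5:**
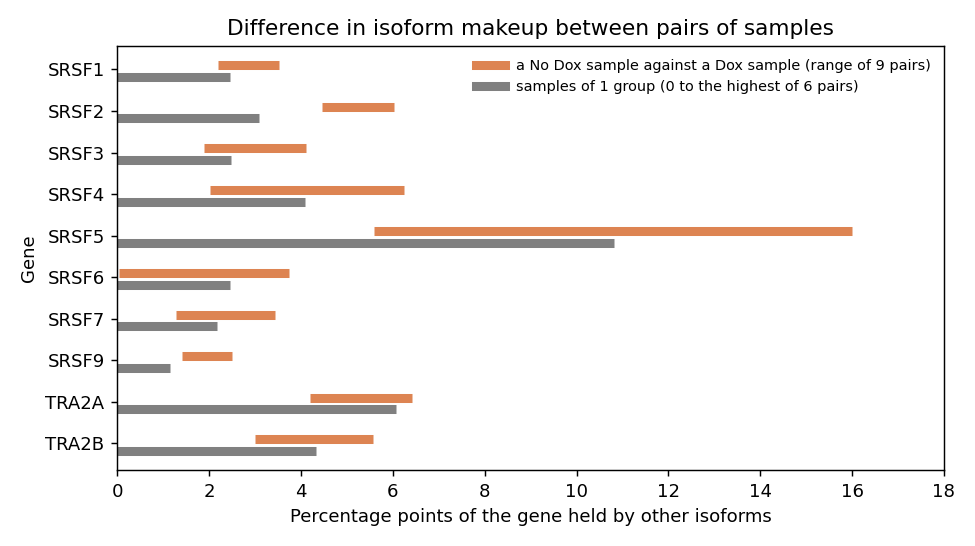
Percentage points of each gene held by other isoforms (x axis) between No Dox and Dox samples (orange, range over 9 pairs) and between samples of the same group (grey, 0 to the highest of 6 pairs). Among these genes, the orange range lies wholly beyond the grey one in SRSF2 and SRSF9 only, and the share of all genes with such a gap was not counted. SRSF5 has the widest spread within groups, up to 10.8 points.

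Other genes of the SR pathway were read from the same edgeR test, in which 26.5% of all genes were lower and 24.9% higher. Among the 2980 genes with many counts described above, 47.2% were lower and 21.8% higher, and some of the genes listed here have fewer counts than those. The counts below are a description beside these backgrounds. Of 11 SR-related splicing proteins, 2 rose, 6 fell and 3 did not pass. SRRM1, a coactivator that bridges SR proteins, rose from 112 to 161 TPM, or 1.44-fold. The test on counts gave SRRM1 a smaller rise, a log2 fold change of 0.30. SRSF10, a splicing repressor of the same family, rose by 0.13. ACIN1 and SRRM2, which act in the exon junction complex and in speckles, fell by 0.20 and 0.18. Of 9 genes for the kinases and the importin of SR proteins, 2 rose and 3 fell. CLK2 and DYRK1A rose by 0.41 and 0.08, and PRPF4B and CLK3 fell by 0.31 and 0.24. Of 14 genes of nonsense-mediated decay, the route that clears poison exon transcripts, 2 rose and 9 fell. UPF3B rose from 42.2 to 61.2 TPM (log2 fold change 0.51) and SMG9 by 0.11, while MAGOH of the exon junction complex and the helicase UPF1 fell by 0.31 and 0.21. Without TMM these counts were 5 higher and 5 lower, 4 higher and 3 lower, and 2 higher and 7 lower, in the same order. Of all genes, 31.1% were higher and 20.5% lower without TMM.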

How the data were processed

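The labels and methods state that the authors trimmed paired-end reads of stranded mRNA libraries with cutadapt, aligned them to GRCh38 with STAR and ran RSEM. For these libraries, tool versions and the annotation release were not given in the sources used here. Deposited expected counts are estimated counts of fragments per isoform. The deposited TPM values are scaled by RSEM for effective length and to the same total in every sample, and the deposited isoform percent is the share of the abundance of a gene. Reads in exons common to several isoforms are split between them by RSEM, so isoform values are estimates, and paralogs can exchange reads. The 2 listed pseudogenes of these genes had no counts.

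Counts were summed per gene and rounded. Genes were tested with edgeR 4.0.16 (glmQLFTest, TMM, filterByExpr), isoforms with limma-voom (limma 3.58.1) and usage with limma on log2((isoform count + 0.5)/(count of the other isoforms + 0.5)), with a trend in mean count, all in R 4.3.3. That usage test replaces diffSplice, which assumes the same variance for the isoforms of a gene. Tests were two-sided, across all features, with Benjamini-Hochberg adjustment at 0.05. The scripts were tested on simulated data. All 10 genes are named, with isoforms of at least 10% of their gene in a group and isoforms past the usage test that moved by at least 3 points. Members, lists and tests were chosen with earlier results of these data known. A planned comparison of annotated isoform classes was not made because no human annotation was used. Alternatives included DESeq2 1.42.0, other scalings, filters and pseudocounts, a replicate block, and fits with 1 sample left out.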

Additional observations from a re-analysis of the deposited data

How the results depend on the processing

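RBFOX1 passed in each of the 13 alternatives (log2 fold change 4.48 to 4.63). At the gene level 8 of the 10 genes were called. That count was 7 to 8 with a sample left out and 0 with a minimum fold change of 1.2, where 2430 of all genes were called in place of 9385 (none of the 10 at an unadjusted p under 0.05 by edgeR). Without TMM 5 were lower and 2 higher. On TPM, 1 (SRSF5) was higher with a pseudocount of 1 or 0.1, and TRA2B turned to a log2 fold change of 0.0072 under both. At the isoform level 16 calls (11 lower, 5 higher) became 11 to 13 with a sample left out, with 1 to 3 higher, and 3 were higher on TPM with either pseudocount and with the replicate block. Calls of all isoforms, 9151 here, were 15552 with DESeq2 and 5518 to 6441 with a sample left out. For usage, 3 calls became 14 with diffSplice, 0 with diffSpliceDGE (5 at an unadjusted p under 0.05), 0 with the replicate block (15 unadjusted) and 0 in each set with a sample left out (11 to 16 unadjusted). Calls of all isoforms by usage, 3814 here, were 7329, 2252, 1208 and 1898 to 2203 in the same order. The causes were not tested. The replicate block left 8 gene calls and 14 isoform calls among these genes. The replicate numbers are not shown to pair the samples: deviations of same-numbered samples correlated at 0.04, 0.03 and 0.06, each the highest for that number. The 20 untested isoforms held at most 24.0 counts in a sample. SRSF5-202 had 437 counts in No Dox replicate 2 and 0 in Dox replicate 2, and its interval spans -7.33 to 1.59 on the log2 scale.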
